A study of Xenopus laevis with 16 samples.

Results

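The early response to Ptf1a was read from 4 of the 16 RNA-seq libraries of a study on animal caps, the ectodermal explants of Xenopus laevis blastulae. The 2 Ptf1a libraries came from caps of embryos given 20 pg of ptf1a-GR mRNA, and the 2 libraries of control caps carry no injected mRNA in their labels, which do not make plain what those embryos received. All 4 were labelled as kept for 6 h with dexamethasone, at 0.4 in the unit that the labels write as μm/ml, so the hormone itself was shared by both groups. The other 12 libraries hold Ptf1a and control caps of 25 h, and caps with GR-neurog2 or ptf1aW224A/W242A-GR mRNA at both times, again 2 per group. The labels do not say whether the 2 libraries of a group came from separate batches of embryos. Each p-value below therefore measures a spread between libraries of a group that may be technical. In the main fit this spread was estimated over all 16 libraries.

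Ptf1a is a basic helix-loop-helix transcription factor that binds DNA together with an E protein and Rbpj, the same DNA-binding protein that carries the Notch signal. In vertebrates it directs progenitors of the dorsal spinal cord, cerebellum and retina to inhibitory neurons, partly through the repressor Prdm13, and it is also needed for the exocrine pancreas. Fusion to GR, the hormone-binding part of the glucocorticoid receptor, keeps the protein inactive until dexamethasone is added. Animal caps left to themselves form epidermis.

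The Ptf1a libraries held 228.3 and 105 (replicates 1 and 2) and the control libraries 49.15 and 31.44 in units of 1e6 counts, so low levels were measured less precisely in the controls. Across all 16 libraries the total ran from 31.4 to 228.3 in the same unit. A total of 3 counts, the limit that a count of 0 allows, stood for 0.0119 and 0.0244 CPM (counts scaled to a library total of 1e6) in the Ptf1a libraries and for 0.0482 and 0.07 CPM in the controls. Counting error alone did not account for the gap between replicates: the chi-square statistic over its degrees of freedom was 141 for the Ptf1a pair and 56.1 for the control pair. This statistic grows with depth, so its values in the deeper Ptf1a pair and the control pair do not rank their agreement. Across genes, which are not independent replicates, log2 CPM of Ptf1a replicate 1 correlated at 0.962 with control replicate 1. It correlated at 0.955 with Ptf1a replicate 2 and at 0.924 with control replicate 2. The 2 control libraries correlated at 0.92 with each other. Epidermal markers were present in every library: the keratin krt8.L stood at 628.6 and 549.2 CPM with Ptf1a and at 541.3 and 392.3 CPM in the controls, while tp63.L, a regulator of the basal epidermis, was below 1 CPM in all 4. Below, a pair of CPM values always gives replicate 1 first and replicate 2 second, scaled for composition by TMM.

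Ptf1a caps held more transcripts of 269 genes and fewer of 5 genes than control caps at 6 h, of 30384 genes tested (edgeR quasi-likelihood test, Benjamini-Hochberg adjusted p under 0.05). The higher calls were 0.885% of the genes tested and the lower calls 0.0165%, together 0.902%. At an unadjusted p under 0.05, 1877 genes were higher and 260 lower, and this split depended on the scaling: DESeq2 size factors in the same test gave 1354 and 643, and libraries of 6 h thinned to equal depth 1294 and 560. Log2 fold changes of the higher genes ran from 0.87 to 13.56 with a median of 2.80, beside a median of 0.15 over all genes tested, which was 0.00188 with DESeq2 size factors. Control levels were low for many of them: 44 averaged under 0.1 CPM and 79 from 0.1 to 1 CPM in the controls, while 39 reached over 100 CPM with Ptf1a. A symbol was available for 214 of the 269, which carry 185 different names, and 55 had a locus or model identifier only. Because these are bulk explants, more cells of a type and more RNA per cell cannot be told apart.

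Setting replicate 1 beside replicate 1 and 2 beside 2 gave each gene a pair of log2 ratios. All 269 higher genes were higher in both pairs and their groups did not overlap, which the test favours in choosing them. Over all genes tested, with the TMM scaling that leaves their median at 0.15, 14649 were higher and 6016 lower in both pairs, and 37.3% did not overlap between groups. The ratio was larger in pair 2 for 191 of the 269 genes and in pair 1 for 78. The same split over all genes is not given here. A count of 0 in control replicate 2, the shallowest of the 4 libraries, can enlarge a pair 2 ratio. For example, pou3f1.L had 6 and 0 control counts and log2 ratios of 7.27 and 13.55. With 5975 and 3455 control counts, nrarp.S had ratios of 1.94 and 2.53. With 4058 and 2852 control counts, id2.S had ratios of 2.29 and 1.93. The reason for the split was not tested. The ratios of a called gene differed by a median of 0.49 on the log2 scale, against 0.29 over all genes.

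**Figure D1:**
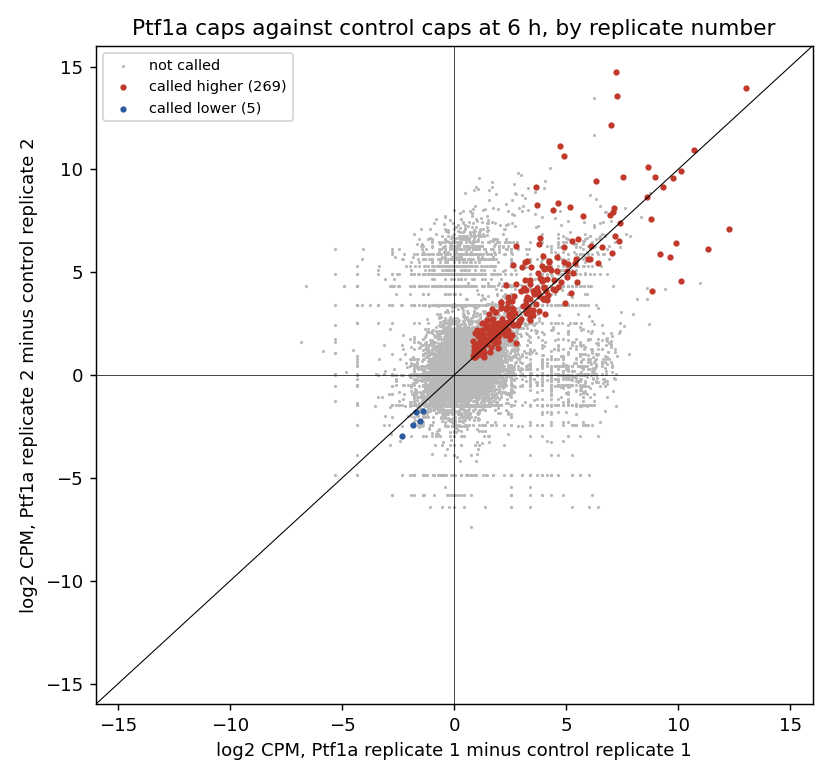
Each point is a gene tested at 6 h, placed by its log2 ratio of TMM-scaled CPM in pair 1 (horizontal axis) and pair 2 (vertical axis) of Ptf1a and control libraries, with the line of equal ratios. The 269 genes called higher (red) lie above 0 on both axes, and the 5 called lower (blue) lie below 0 on both. Grey genes far out on only 1 axis had a large ratio in only 1 pair, and some of these ratios rest on a few counts against 0.

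The count depended strongly on the model. The replicate number as a block raised it to 416 higher and 17 lower genes, with all 269 among them, and DESeq2's Wald test gave 484 and 101, so that higher genes made up 82.7% of its calls against 98.2% here. A block in a fit of only the 4 libraries compared, with little left to estimate the spread, gave 1288 and 1026, a share of 55.7%. Without the block that fit called 7 genes higher, of which 6 were among the 269. The 8 libraries of 6 h alone called 97, of which 82 were among them. Of the 5 lower genes, the fit of 8 libraries kept 1, fosl2.S. The higher genes numbered 213 without Ptf1a replicate 1, 124 without Ptf1a replicate 2, 91 without control replicate 1 and 84 without control replicate 2. Thinning the 6 h libraries to 1 depth, added after the totals were seen, gave 216, of which 211 were among the 269.

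The factor itself checked the labels. Transcripts of ptf1a.L (build 9.1, chromosome 6L, 23341343 to 23343013) stood at 184 and 181 CPM in the Ptf1a libraries and at 0.161 and 0.187 CPM in the controls. Both Ptf1a libraries were far above both controls (log2 fold change 10.04 ± 0.71 SE, adjusted p = 4.58e-05), and counts cannot separate injected mRNA from the embryo's own. Its partners showed no such gap. The Rbpj gene rbpj.L stood at 18.4 and 18.4 CPM against 21.4 and 19.4 CPM (log2 fold change -0.15 ± 0.26), and rbpj.S at 10.5 and 8.14 against 10.5 and 9.14 CPM. The E protein gene tcf3.S held 227 and 204 CPM beside 229 and 193 CPM, and the log2 fold changes of tcf3.L, tcf12.L and tcf12.S lay between -0.05 and 0.16, with adjusted p = 1 for each of these partners. Of the 7 genes of the complex that were tested, ptf1a.L was the 1 called, and it stayed called without each of the 4 libraries in turn, at adjusted p up to 0.00208.

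The largest rise was that of prdm13, the repressor of excitatory fate genes that lies downstream of Ptf1a in the dorsal neural tube. Transcripts of prdm13.S (chromosome 5S, 65016308 to 65022315) stood at 57.3 and 95.5 CPM with Ptf1a and at 0.0321 and 0.0466 CPM in the controls, whose libraries each held 2 counts. The log2 fold change was 10.90 ± 1.36 (adjusted p = 0.00181). The homeologous prdm13.L (chromosome 5L, 83447778 to 83455258), the copy of the gene on the other subgenome, stood at 13.9 and 26.6 CPM against 0 counts in both controls. Set against a floor of 3 counts over the control pair, prdm13.L was at least 634-fold higher, and its call had adjusted p = 0.00697.

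A corepressor of the ETO family and an RNA-binding protein gene rose on a similar scale. Transcripts of cbfa2t2.S (chromosome 9_10S, 31584486 to 31610815), whose protein recruits histone deacetylases to DNA-bound factors, stood at 103 and 194 CPM against 0.755 and 0.793 CPM (log2 fold change 7.58 ± 0.56, adjusted p = 4.58e-05). The L copy started higher and less evenly, at 8.15 and 25.9 CPM, and stood at 134 and 204 CPM with Ptf1a (log2 fold change 3.31 ± 0.46). These were the 2 of 6 ETO family genes called, 33.3% against 0.885% of all genes tested. The CCCH zinc finger gene zc3h12c, of a family of RNA-degrading proteins, had zc3h12c.L at 75.8 and 116 CPM against 0.193 and 0.28 CPM (log2 fold change 8.68 ± 1.03), and zc3h12c.S at 26.6 and 34.5 CPM against 0.161 and 0.373 CPM.

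Both copies of pou3f1, a class III POU factor of neural progenitors and Schwann cells, rose too. The L copy held 15.2 and 20.1 CPM with Ptf1a against control values of 0.0964 CPM and 0 (log2 fold change 8.28 ± 0.78, adjusted p = 0.000248), and the S copy 31 and 30.4 CPM against 0.579 and 0.14 CPM. They were the 2 called of 14 POU factor genes, 14.3% against 0.885% of all genes tested. The leucine-rich repeat membrane gene lrrn1-like.1.S stood at 16.4 and 41.8 CPM against 0.354 and 0.42 CPM, and lrrn1-like.1.L at 173 and 213 CPM against 11.2 and 3.87 CPM. Further large rises were those of fam101b.L, a filamin-binding regulator of actin (log2 fold change 6.26 ± 0.56), of c8orf4.L (5.94 ± 0.79) and of gfi1.L, a zinc finger repressor (5.1 ± 1.0, adjusted p = 0.0341). Without Ptf1a replicate 1 or 2 only gfi1.L of these 13 copies lost its call. Without a control library prdm13.L, lrrn1-like.1.S, c8orf4.L and gfi1.L lost theirs, and without control replicate 2 also lrrn1-like.1.L, at adjusted p of up to 0.355.

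**Figure D2:**
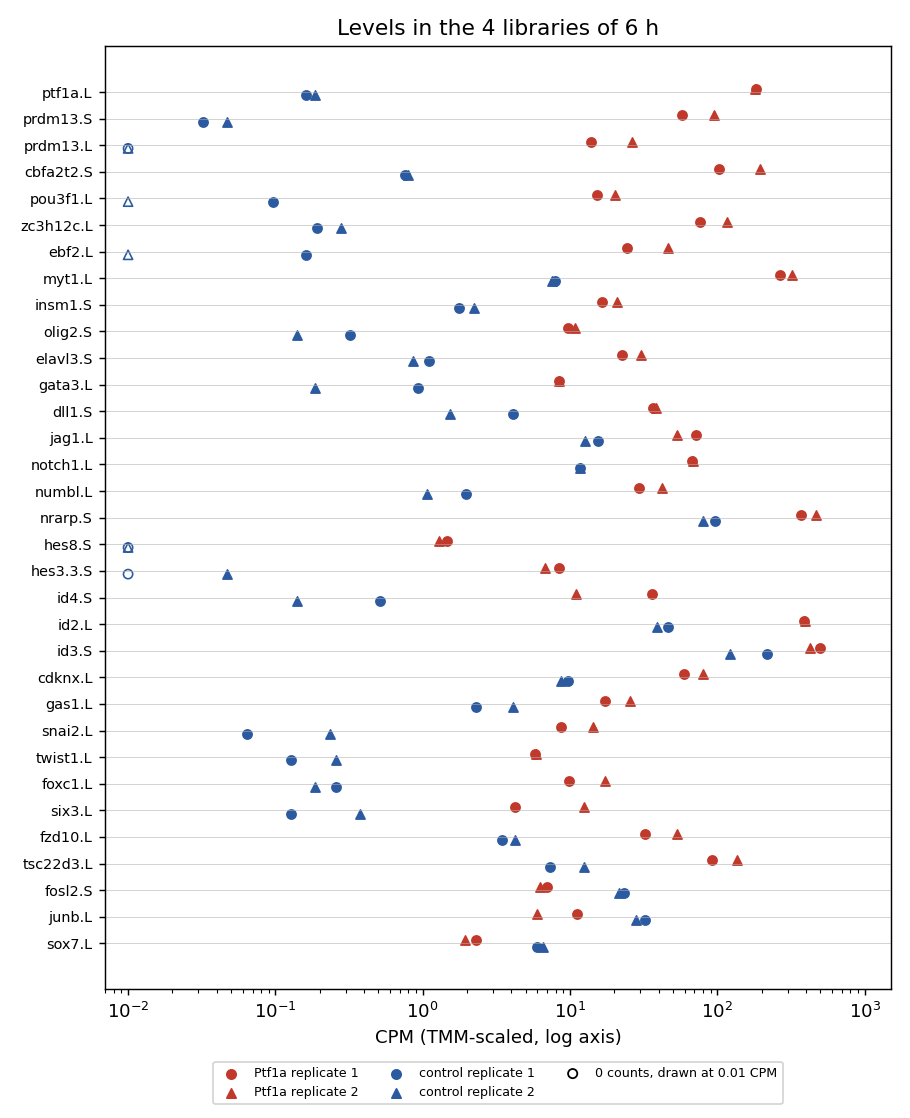
TMM-scaled CPM on a log axis in the 4 libraries of 6 h for genes described in the text, with circles for replicate 1 and triangles for replicate 2. Red Ptf1a points stand to the right of blue control points from ptf1a.L to tsc22d3.L, and to their left for fosl2.S, junb.L and sox7.L, with open symbols at 0.01 CPM for libraries with 0 counts.

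Among the other genes that rose were several abundant ones outside the neuronal lists, chosen here for their level after the values were seen. The small GTPase gene arl4a had both copies called, with arl4a.S at 251 and 343 CPM against 15.3 and 18.3 CPM (log2 fold change 4.14 ± 0.29, adjusted p = 4.58e-05) and arl4a.L at 235 and 232 against 56.6 and 45.2 CPM. The gene amer1.L, whose protein is a membrane-bound regulator of Wnt signalling, stood at 530 and 576 CPM against 103 and 98.1 CPM (log2 fold change 2.46 ± 0.23). The small GTPase genes rhebl1.L, rap2b.L and rap2b.S rose by log2 fold changes of 1.95, 2.01 and 1.28, each with nearly equal replicates. The Myc antagonist gene mxi1.L rose from 29.2 and 35.8 to 174 and 268 CPM, and the kinase gene pim1.L from 76.9 and 101 to 224 and 340 CPM. The planar polarity gene prickle1.S (log2 fold change 2.51 ± 0.39), the homeobox repressor gene tgif1.L (1.97 ± 0.26), the ADP-ribosyltransferase gene tiparp.L (3.89 ± 0.32) and vim.L, for the intermediate filament vimentin (2.31 ± 0.46), were called as well. Of these 12 copies 6 stayed called without each of the 4 libraries: amer1.L, rhebl1.L, arl4a.S, arl4a.L, rap2b.L and tiparp.L. The calls of pim1.L, mxi1.L, prickle1.S, rap2b.S, tgif1.L and vim.L were each lost without at least 1 library, at adjusted p of up to 0.283.

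Of 48 tested copies of early neuronal transcription factors 6 rose, 12.5% against 0.885% of all genes, with a median log2 fold change of 0.85 over the list. These were both copies of ebf2, a COE family factor of neuronal differentiation, both of myt1, a zinc finger factor that opposes Notch inhibition of neurogenesis, and 1 copy each of insm1 and zbtb18. Transcripts of myt1.L (chromosome 9_10L, 17602865 to 17639144) stood at 265 and 320 CPM against 7.86 and 7.6 CPM (log2 fold change 5.24 ± 0.59, adjusted p = 0.000932), and myt1.S at 128 and 175 CPM against 7.2 and 4.71 CPM. Those of ebf2.L stood at 24.3 and 46 CPM against 0.161 CPM and 0, and those of ebf2.S at 4.45 and 6.55 CPM against 0.161 and 0.28 CPM. The zinc finger gene insm1.S, active in newborn neurons, held 16.5 and 20.9 CPM against 1.75 and 2.22 CPM, and the repressor gene zbtb18.S 14.2 and 20.5 CPM against 0.916 and 0.84 CPM. Members that missed the threshold could still differ between groups: insm1.L stood at 13.4 and 17.1 CPM against 1.93 and 4.20 CPM, with adjusted p = 0.14.

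The list of proneural and related bHLH genes had 1 call among 30 tested, 3.33% against 0.885% of all genes tested. This was olig2.S, of a progenitor factor for motor neurons and glia, at 9.67 and 10.8 CPM against 0.321 and 0.14 CPM (log2 fold change 5.42 ± 0.85). The proneural gene neurog2.L stood at 1.10 and 0.992 CPM against 0.257 and 0.373 CPM, which did not pass (log2 fold change 1.75 ± 0.47, adjusted p = 0.169). No neurog, neurod, ascl or atoh copy was called. At an unadjusted p under 0.05, 8 of the 30 were higher and 0 lower (median log2 fold change 0.57). Over all 30384 genes tested, 1877 were higher and 260 lower. Uncalled copies with few control counts included neurod4.L, at 0.9 and 0.423 CPM against 0.0321 CPM and 0. Another was neurod4.S, at 0.486 and 0.927 against 0.0482 CPM and 0. Of 89 pan-neuronal genes 2 rose, 2.25% against the same 0.885%. These were both copies of elavl3, which encodes the neuronal RNA-binding protein HuC. Transcripts of elavl3.S stood at 22.5 and 30.3 CPM against 1.11 and 0.863 CPM, and of elavl3.L at 58.1 and 72 CPM against 6.86 and 4.08 CPM (log2 fold change 3.57 ± 0.72, adjusted p = 0.0389).

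Genes of inhibitory neuron identity gave 5 higher calls among 58 tested, 8.62% against 0.885% of all genes tested (median log2 fold change of the list 0.55). Beside the prdm13 copies these were gata3.L, gata3.S and dlx6.S. The zinc finger gene gata3, of ventral spinal inhibitory interneurons, had gata3.L at 8.40 and 8.40 CPM against 0.932 and 0.187 CPM (log2 fold change 3.84 ± 0.57, adjusted p = 0.00591) and gata3.S at 4.55 and 4.83 against 0.611 and 0.793 CPM. The homeobox gene dlx6.S, of forebrain inhibitory neurons, stood at 62.7 and 55.1 CPM against 22.4 and 16.1 CPM. None of 17 genes of GABA and glycine synthesis or transport was called by edgeR, and none reached an unadjusted p under 0.05. Of 54 excitatory fate genes 2 rose, 3.7% of the list. The first was tlx3.S, a selector of excitatory fate, from 0.0964 and 0.14 to 1.74 and 3.61 CPM. The second was eya1.S, a phosphatase and transcriptional cofactor, from 2.51 and 1.14 to 35.3 and 29.9 CPM. Their copies tlx3.L and eya1.L were not called (log2 fold changes 0.21 and 0.72). Of the 14 called copies in the last 3 paragraphs, myt1.L, myt1.S, zbtb18.S and gata3.L stayed called without each library. The calls of ebf2.L, ebf2.S, insm1.S, olig2.S, elavl3.S, elavl3.L and tlx3.S were lost without either control library, and those of gata3.S, eya1.S and dlx6.S without at least 1 library, at adjusted p of up to 0.406.

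Notch ligands, receptors and their regulators had 8 higher members of 56 tested, 14.3% against 0.885% of all genes tested. Their median log2 fold change of 0.16 was close to the 0.15 of all genes. The ligand gene dll1 had both copies called, with dll1.L (chromosome 5L, 50297161 to 50305087) at 49.4 and 48 CPM against 4.77 and 1.96 CPM, and dll1.S at 36.7 and 38.4 CPM against 4.11 and 1.54 CPM (log2 fold change 3.72 ± 0.41, adjusted p = 0.000736). A second ligand gene, jag1.L, stood at 72.1 and 53.3 CPM against 15.4 and 12.6 CPM, while jag1.S held 5.09 and 6.28 against 5.93 and 6.86 CPM. The receptor gene notch1.L held 67.3 and 68 CPM against 11.6 and 11.7 CPM (log2 fold change 2.54 ± 0.37), and notch1.S rose less, from 58.6 and 75.6 to 147 and 138 CPM. The gene numbl.L, for a Numb-like adaptor that restrains Notch, stood at 29.4 and 41.9 CPM against 1.96 and 1.07 CPM (log2 fold change 4.54 ± 0.44, adjusted p = 0.000317). Both copies of neurl1b, a ubiquitin ligase that acts on Notch ligands, rose, by 1.84 ± 0.25 for neurl1b.S and 0.87 ± 0.18 for neurl1b.L on the log2 scale.

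Of 37 Notch target genes 7 rose, 18.9% against 0.885% of all genes tested, with a median log2 fold change of 1.56 over the list. At an unadjusted p under 0.05, 20 were higher and 0 lower. In both pairs 25 were higher and 6 lower. Among the latter were hes1.L and hes1.S, with log2 fold changes of -0.96 and -1.21, neither called. The feedback inhibitor gene nrarp.S was the most abundant, at 369 and 465 CPM against 96 and 80.6 CPM (log2 fold change 2.24 ± 0.21, adjusted p = 0.000202). Its copy nrarp.L stood at 56.8 and 58.8 against 19.6 and 10.9 CPM, with adjusted p = 0.0552. The remaining 6 called genes encode Hes and related bHLH repressors. Of these hes8.S stood at 1.47 and 1.29 CPM against 0 counts in the controls, at least 49.3-fold higher. The control pair held 2 counts of hes8.L and 2 of hes3.3.S, and their depth-scaled count ratios were 39.2 (exact 95% interval 10.7 to 325) and 411 (114 to 3400). Transcripts of hes3.3.L stood at 2.10 and 1.72 CPM against 0.129 and 0.0466 CPM, of hes3.1.S at 47.1 and 40 against 8.48 and 11.8 CPM, and of bhlhe40.L at 4.21 and 7.80 against 0.803 and 0.56 CPM. Just outside the threshold hes5.1.S stood at 27.9 and 32.7 against 0.482 and 0.606 CPM (adjusted p = 0.051). A hes5 gene outside the list, hes5_X2.S, was called higher by edgeR's test (log2 fold change 9.24, adjusted p = 0.012). Its copy hes5_X2.L was not called (log2 fold change 0.15). Several hes genes lie close together on chromosomes 7L and 7S and have related sequences, and reads may be shared between them. Of the 15 called copies of both Notch groups, dll1.S, numbl.L and nrarp.S stayed called without each library. The other 12 lost 6 calls without each Ptf1a library. Without control replicate 1 all of the 12 but bhlhe40.L lost their calls, and without control replicate 2 all did, at adjusted p of up to 0.392.

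The Id genes, whose proteins bind E proteins and keep bHLH factors off DNA, had 5 of 6 copies called higher, with a median log2 fold change of 2.66. Transcripts of id2.L (chromosome 5L, 137150827 to 137154308) stood at 388 and 397 CPM against 46 and 38.9 CPM (log2 fold change 3.21 ± 0.31, adjusted p = 0.000323), and those of id2.S at 319 and 253 CPM against 65.2 and 66.5 CPM. From a much lower start id4.S reached 36 and 11.1 CPM against 0.514 and 0.14 CPM, and id4.L 5.95 and 3.21 CPM against 0.177 and 0.117 CPM. The abundant id3.S stood at 499 and 428 CPM against 219 and 123 CPM (adjusted p = 0.0454), and id3.L at 526 and 439 against 244 and 133 CPM (log2 fold change 1.36 ± 0.29, adjusted p = 0.0569). In each of the 6 copies both Ptf1a libraries were above both controls. Of all genes tested 0.885% were called higher, and in 37.3% the groups did not overlap, in either direction. Only id2.L stayed called without each of the 4 libraries, and id4.S, id4.L, id2.S and id3.S lost their calls without at least 1, at adjusted p of up to 0.38.

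Genes of cell cycle exit included 5 higher calls of 44 tested (median log2 fold change 0.25). The frog Cdk inhibitor gene cdknx had both copies called, with cdknx.L at 59.4 and 79.7 CPM against 9.71 and 8.70 CPM (log2 fold change 2.92 ± 0.29, adjusted p = 0.000323) and cdknx.S at 53.9 and 64 CPM against 25.3 and 23 CPM. Both copies of gas1, a membrane protein of arrested cells, rose as well, by 2.75 ± 0.55 for gas1.L and 1.47 ± 0.29 for gas1.S. The Rb family gene rbl2.L stood at 2.56 and 3.70 CPM against 1.09 and 0.816 CPM. Of 74 cell cycle genes 1 rose, 1.35% against 0.885% of all genes tested. This was cdc25b.L, for a phosphatase that activates Cdks, at 388 and 527 CPM against 33.7 and 69.3 CPM (log2 fold change 3.15 ± 0.35). The summed level of the 74 was 13610 and 13920 CPM with Ptf1a and 12020 and 12260 CPM in the controls, beside 909000 and 853500 against 789700 and 733000 CPM over all genes tested. Of 53 p53 target and stress genes plk3.S, for a stress kinase, was the 1 called, 1.89% of the list (log2 fold change 2.0 ± 0.36). Without each library cdknx.L and cdc25b.L stayed called, and cdknx.S, gas1.L, gas1.S, rbl2.L and plk3.S lost their calls without at least 1, at adjusted p of up to 0.383.

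Neural crest genes, of the migratory cells at the neural plate border, had 5 of 48 tested copies higher, 10.4% (median log2 fold change 0.44). Of all genes tested 0.885% were called higher. Among the 5 was id3.S. The repressor gene snai2.L, of the change from epithelial to migratory cells, stood at 8.67 and 14.3 CPM against 0.0643 and 0.233 CPM (log2 fold change 6.34 ± 0.56, adjusted p = 0.000155). Its copy snai2.S was at only 0.104 and 0.0813 CPM against 0 counts, at least 3.37-fold higher. The bHLH gene twist1.L held 5.78 and 5.89 CPM against 0.129 and 0.257 CPM, and sox8.L 16.8 and 8.94 CPM against 2.72 and 1.61 CPM. Their copies twist1.S and sox8.S were not called (log2 fold changes 0.19 and 1.57). Neural plate genes had 3 of 72 copies higher, 4.17% of those tested (median log2 fold change 0.09). These were six3.L, of the anterior plate and eye field, and meis1.L and meis3.S, homeobox cofactors of hindbrain patterning. They stood at 4.25 and 12.4, at 5.08 and 5.02 and at 51.9 and 65.9 CPM, against 0.129 and 0.373, 0.482 and 0.793 and 25.2 and 30.5 CPM. Pan-neural plate genes were already abundant in the controls, with sox3.S at 460 and 518 CPM against 415 and 568 CPM. The calls of snai2.L, meis1.L and foxc1.L, described with the mesodermal genes below, held without each library. Those of snai2.S, twist1.L, sox8.L, six3.L and meis3.S did not, with adjusted p of up to 0.412.

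Of 96 Wnt pathway genes 4 rose (median log2 fold change 0.26): the receptor gene copies fzd10.S, from 0.611 and 0.373 to 14.7 and 19.7 CPM, fzd10.L, from 3.47 and 4.24 to 32.2 and 53 CPM, fzd2.S, and axin2.L, a feedback inhibitor induced by Wnt signalling, from 0.386 and 0.233 to 1.64 and 2.74 CPM. Of 118 axon guidance genes 4 rose (median 0.22): the ephrin-B ligand genes efnb1.L, efnb2.L and efnb3.S, with log2 fold changes of 1.5, 1.79 and 1.91, and flrt3.S, a cell surface ligand of Unc5 receptors, with 2.17. Of 63 genes of growth factors and their receptors 5 rose (median 0.28). These were gfra1.S, a coreceptor for GDNF (log2 fold change 4.41 ± 0.78), igf2.L (5.33 ± 0.84), the low-affinity neurotrophin receptor gene ngfr.S (1.54 ± 0.24), kitlg.L (1.0 ± 0.15) and igf1r.S (0.89 ± 0.18). Of 92 genes of the BMP, TGF-beta and FGF pathways 1 rose, 1.09% against 0.885% of all genes tested. This was smad6.L, an inhibitor of BMP signalling, at 43.4 and 41.7 CPM against 18.5 and 17.8 CPM.

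Adhesion genes had 3 of 85 copies higher, 3.53% against 0.885% of all genes tested (median log2 fold change of the list 0.26). All were protocadherins: pcdh18.L, from 1.59 and 1.26 to 19.1 and 19.1 CPM, pcdh18.S, from 1.64 and 1.87 to 7.67 and 8.25 CPM, and pcdh7.L, from 10.4 and 11.8 to 45.1 and 68 CPM. Of the 17 copies called in the signalling and adhesion groups, fzd10.L, efnb2.L, efnb3.S, pcdh18.L and pcdh7.L stayed called without each library. The other 12 each lost the call without at least 1, most often without control replicate 2, when 12 were lost, at adjusted p of up to 0.355.

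The 5 genes that fell were adamts1.L, apobec2.L, junb.L, sox7.L and fosl2.S. Of these, 2 encode subunits of AP-1, the immediate early transcription factor: fosl2.S (chromosome 5S, 9889283 to 9914047) stood at 7.02 and 6.26 CPM against 23.2 and 21.7 CPM (log2 fold change -1.76 ± 0.21, adjusted p = 0.00144), and junb.L at 11.1 and 5.98 CPM against 32.1 and 28.3 CPM (-1.81 ± 0.28, adjusted p = 0.00756). Another AP-1 gene, jun.L, was higher with Ptf1a, at 3.09 and 4.68 CPM against 1.06 and 0.606 CPM, and fos.L stood at 6.01 and 4.32 CPM against 22.8 and 15.9 CPM without passing the test (log2 fold change -1.90, adjusted p = 0.0702). With the replicate number as a block fos.L was called lower by edgeR's test (adjusted p = 0.0459), as it was with the 8 libraries of 6 h alone (0.0335), and over all alternatives its adjusted p ran from 0.000102 to 0.598. Among 49 immediate early genes these were 1 higher and 2 lower call, with a median log2 fold change of -0.08. Of all genes tested 0.885% were called higher and 0.0165% lower. The metalloprotease gene adamts1.L stood at 14.1 and 14.9 CPM against 49.8 and 79.7 CPM. The transcription factor gene sox7.L, of early endothelium, stood at 2.29 and 1.94 against 5.95 and 6.58 CPM. It was the 1 called of 29 blood and vessel genes (median 0.13). Its more abundant copy sox7.S stood at 19.8 and 11.3 against 17.7 and 10.2 CPM (log2 fold change 0.15) and was not called. The deaminase family gene apobec2.L was at or below 0.14 CPM in every library. Other copies were not called, with log2 fold changes of -1.79 for junb.S, -0.82 for adamts1.S, -0.06 for apobec2.S and -0.08 for jun.S. Of the lower genes only fosl2.S stayed called without each of the 4 libraries. The calls of adamts1.L, apobec2.L, junb.L and sox7.L, and the higher call of jun.L, were lost without at least 1, at adjusted p of up to 0.382.

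The glucocorticoid response was read out because the caps carry a hormone receptor domain and the controls, by their labels, the same hormone without it. Of 54 such genes 1 rose, 1.85% against 0.885% of all genes tested. This was tsc22d3.L, which encodes the glucocorticoid-induced leucine zipper protein, at 92.8 and 136 CPM against 7.33 and 12.5 CPM (log2 fold change 3.52 ± 0.30, adjusted p = 0.000135). The median log2 fold change of the list was -0.000851, and its summed level was 1066 and 1141 CPM with Ptf1a and 953.9 and 997.2 CPM in the controls, where the sums over all genes tested were 909000 and 853500 against 789700 and 733000 CPM. Caps with the other GR fusions, compared with the same controls, held 86.7 and 109 CPM of it with Neurog2 and 154 and 169 CPM with the W224A/W242A form of Ptf1a. All 6 libraries with a GR fusion thus lay above both controls of 6 h, and the part of the receptor domain in this was not tested.

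Lists of markers were read out for the labelled ectoderm and for other cell types that the explants could hold. Of 85 epidermis genes 1 rose, 1.18% against 0.885% of all genes tested. This was dlx3.L, at 20.5 and 21.5 CPM against 8.18 and 5.64 CPM. The list's median log2 fold change was 0.36, with summed levels of 11350 and 10360 CPM against 8451 and 6776 CPM. Over all genes tested the sums were 909000 and 853500 against 789700 and 733000 CPM. At an unadjusted p under 0.05, 14 epidermis genes were higher and 1 lower, and the alternatives called from 0 to 15 higher. Of 50 multiciliated cell genes myb.L rose (summed level 664.6 and 682.2 against 626.6 and 638.5 CPM, median 0.21). Of 31 ionocyte and small secretory cell genes foxa1.L rose (58.8 and 53.77 against 62.58 and 48.11 CPM, median 0.34). These single calls were 2% and 3.23% of their lists. Of 11 cement gland genes ag1.S rose, from 3.21 and 5.6 to 14.6 and 33.6 CPM (median of the list -0.08).

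Endoderm and pancreas genes had 3 of 36 tested copies higher, 8.33% against 0.885% of all genes tested (median log2 fold change of the list 0.23). Their summed levels were 118.6 and 174.4 CPM against 44.59 and 55.6 CPM, and a2m.S alone made up most of the Ptf1a sums. Over all genes tested the sums were 909000 and 853500 against 789700 and 733000 CPM. The 3 called copies were gata6.L, at 1.37 and 1.68 against 0.112 and 0.0933 CPM, a2m.S, a protease inhibitor, at 77.8 and 125 against 14.7 and 20.5 CPM, and foxa1.L. Of the defining endoderm genes, sox17a.L and sox17a.S stayed at or below 1.38 CPM in all 4 libraries. For sox17b, sox17b.1.L stood at 1.08 and 2.04 CPM with Ptf1a against 2.33 and 5.67 CPM. Its copy sox17b.1.S stayed at or below 0.868 CPM, and neither was called. Of 66 mesoderm and muscle genes 3 rose, 4.55% of the list (median 0.43). These were foxc1.L, from 0.257 and 0.187 to 9.93 and 17.2 CPM, rbm24.L, for a splicing factor of muscle, from 9.83 and 5.46 to 115 and 93.7 CPM, and des.1.S, for the intermediate filament desmin, from 0.0964 and 0.14 to 1.07 and 1.2 CPM. The muscle actin and master regulator genes actc1.S and myod1.L were at or below 0.70 CPM throughout. Levels of the other defining mesoderm genes, t and tbx6, are not given here. At an unadjusted p under 0.05, 12 genes of the mesoderm and muscle list were higher and 3 lower. Over all genes tested 1877 were higher and 260 lower. The part of any admixed tissue in the other results was not tested.

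No member was called in 4 further lists by edgeR's test without a replicate block, while alternatives called up to 2 hox and cdx, 4 retinoid, 4 ion channel and 3 early ectoderm genes higher. Among 54 hox and cdx genes 5 were higher at an unadjusted p under 0.05 (median log2 fold change 0.86), among 40 retinoid genes 5 (median 0.21), and among 94 ion channel and transmitter receptor genes 6 (median 0.31). Of 36 early ectoderm genes 2 were higher and 5 lower at that level, with a median of -0.46, and sall4.L of this list was called lower with the replicate block. Over all 30384 genes tested, 1877 were higher and 260 lower at that level. Of the 9 copies called in the marker and hormone lists, other than foxc1.L, tsc22d3.L and rbm24.L stayed called without each library, and dlx3.L, myb.L, foxa1.L, ag1.S, des.1.S, gata6.L and a2m.S lost their calls without at least 1, at adjusted p of up to 0.398. List medians close to 0 changed sign in at least 1 alternative for lists that include the AP-1, blood vessel, BMP and related, cell cycle, cement gland, glucocorticoid, neural plate and Ptf1a complex genes.

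**Figure D3:**
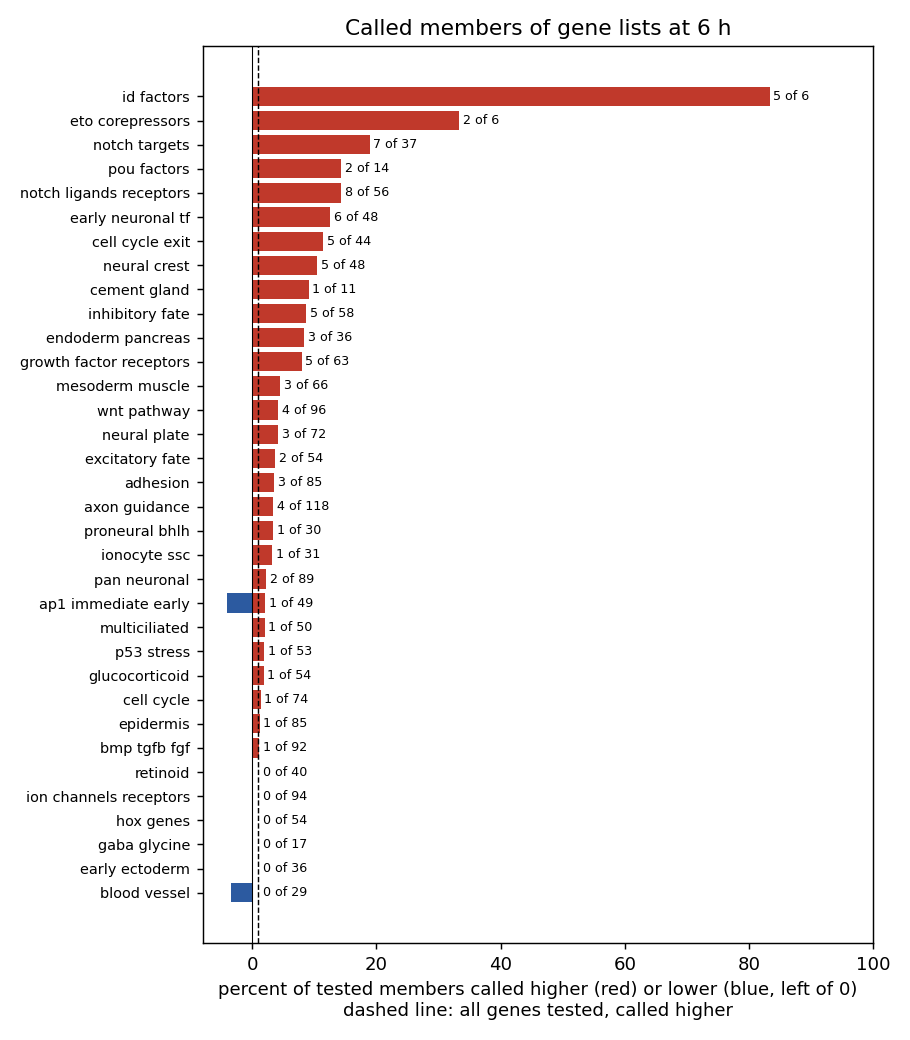
For the gene lists named on the vertical axis, the percent of tested copies called higher (red bars) or lower (blue bars, to the left of 0) at 6 h, with the higher count beside the bar. The Id factors stand at 5 of 6 and the Notch targets at 7 of 37, beside a dashed line at 0.885% for all genes tested.

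Xenopus laevis is tetraploid, and 7996 genes had both an L and an S copy tested. In 161 of these at least 1 copy rose: both in 29, only the L copy in 82 and only the S copy in 50, and in no pair was 1 copy called higher and the other lower. In the 132 pairs with 1 called copy, the other had a positive log2 fold change in 108, over 1 in 44, and an unadjusted p under 0.05 in 39. The median was 0.61, beside 0.15 over all genes tested. Of all 30384 genes tested, 1877 were higher and 260 lower at that p. The shares of positive values and of values over 1 among all genes are not given here. In the remaining pairs the uncalled copy had no positive log2 fold change, down to -3.56. Copies called alone therefore include pairs close to the threshold, such as id3, and pairs whose uncalled copy barely moved or was barely present. The S copy of gata6, for example, stood at 0.143 and 0.13 CPM against 0.161 and 0.14 CPM. For numbl the uncalled numbl.S stood at 10.6 and 5.45 CPM against 7.30 and 3.03 CPM, and for fosl2 the uncalled fosl2.L at 25.9 and 25.6 against 19.1 and 28.5 CPM. How reads that match both copies were assigned is not given in the sources used here, so splits between copies are uncertain.

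**Figure D4:**
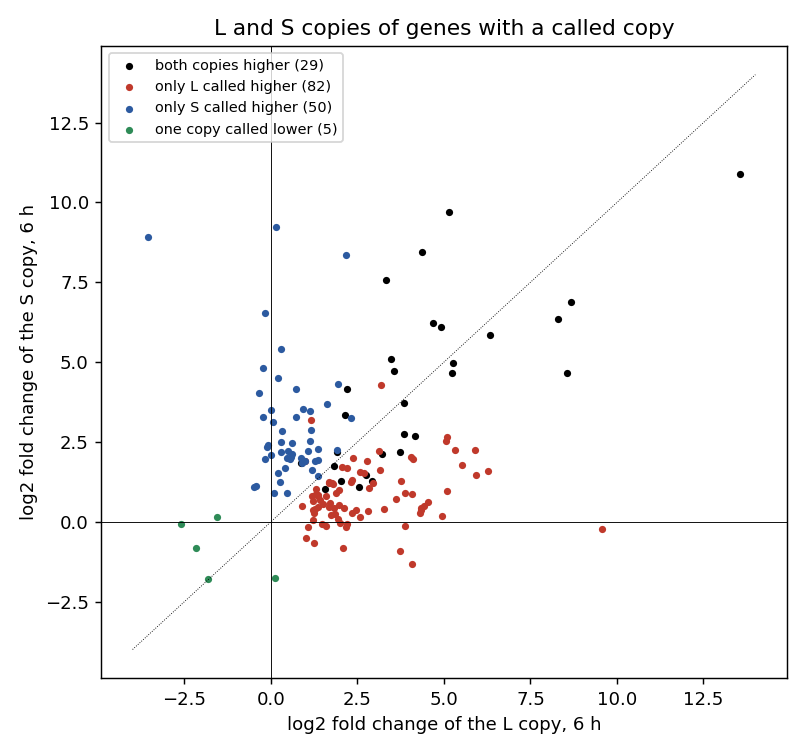
Log2 fold changes at 6 h of the L copy (horizontal axis) and the S copy (vertical axis) for each pair with a called copy, with the line of equal change. The 29 pairs with both copies higher (black) lie in the upper right, while the 82 with only L (red) and 50 with only S (blue) called spread along the axes.

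The genes that rose at 6 h were followed in the separate libraries of 25 h. Of the 269, 75 (27.9%) were higher in Ptf1a caps at 25 h as well, 50 were lower and 144 were not called, where over all genes tested 3609 (11.9%) were higher and 2619 (8.62%) lower. The 75 made up 2.08% of the genes higher at 25 h. Called higher at both times were prdm13.S, at 38.1 and 24.2 CPM at 25 h against 0.188 CPM and 0 in the controls, ebf2.L, at 42.7 and 48.5 against 0.113 CPM and 0, and elavl3.S, at 52.9 and 42.3 against 0.808 and 1.31 CPM. Also still higher were dll1.L, at 38.5 and 25.6 against 1.39 and 1.75 CPM, notch1.L, at 40.7 and 60.2 against 5.66 and 11.3 CPM, and myt1.L, with a log2 fold change of 3.07 at 25 h. Transcripts of ptf1a.L itself stood at 2.37 and 3.86 CPM against 0.413 and 0.159 CPM.

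Other genes that rose at 6 h were not called, or were lower, at 25 h. No Id copy was called at 25 h, with id2.L at 226 and 218 CPM against 222 and 276 CPM. The ETO gene cbfa2t2.S stood at 20.8 and 23.3 CPM against 12.6 and 13.9 CPM, and tsc22d3.L at 17.2 and 13.7 against 19.4 and 17.5 CPM, neither called. Called lower at 25 h were rbl2.L (25.3 and 23.9 against 84.5 and 90.3 CPM), efnb2.L (40.7 and 36.5 against 139 and 118 CPM), dlx3.L (82.9 and 107 against 337 and 285 CPM) and jun.L. Of the genes that fell at 6 h, fosl2.S, junb.L and sox7.L were lower at 25 h too.

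The difference itself was tested with its sign. The log2 fold change was lower at 25 h than at 6 h for 175 of the 269 genes, and higher for none. Over all genes it was lower for 1623 (5.34%) and higher for 1358 (4.47%). A lower value can be a smaller rise or a fall at 25 h. Such falls were those of dlx3.L, rbl2.L, efnb2.L and jun.L, called lower at 25 h. Those 269 were chosen on the same 6 h libraries that enter the difference, so this count is no independent result. The 25 h values themselves rest on other libraries. Leaving out 1 of the 4 libraries of 6 h left 24 to 65 genes that were higher at both times and 18 to 40 that were higher at 6 h and lower at 25 h, and leaving out 1 library of 25 h left 47 to 60 and 22 to 30. A block by replicate number gave 123 and 92.

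**Figure D5:**
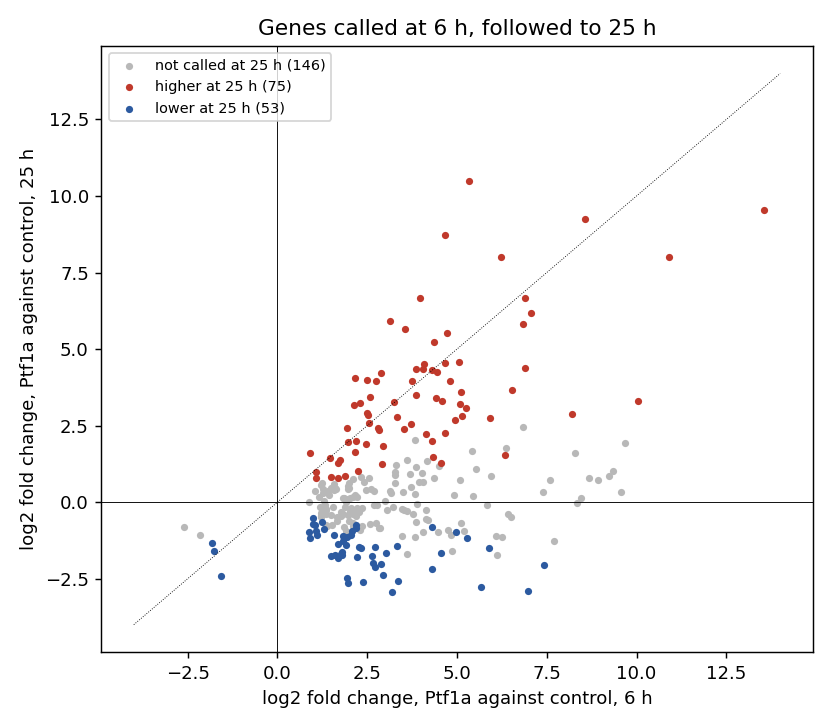
Log2 fold change of Ptf1a against control caps at 6 h (horizontal axis) and 25 h (vertical axis) for the genes called at 6 h, coloured by their call at 25 h. The 75 genes higher at both times (red) lie mostly below the dotted line of equal change, and 50 genes higher at 6 h lie below 0 at 25 h (blue).

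The caps with the other mRNAs were compared with the same control libraries at 6 h, so their values are set side by side with no test. Transcripts of prdm13.S stood at 57.3 and 95.5 CPM with Ptf1a, at 0.60 and 0.48 CPM with Neurog2 and at 1.32 and 1.89 CPM with the W224A/W242A protein, in which 2 tryptophans are changed to alanine. The values of snai2.L were 8.67 and 14.3, 0.300 and 0.480, and 0.159 and 0.199 CPM in the same order. For these 2 genes both Ptf1a libraries lay above the 4 others. For the ligand gene dll1.L both lay below the 4 others, at 49.4 and 48 CPM with Ptf1a, 52.2 and 63.7 CPM with Neurog2 and 97.3 and 70.4 CPM with the mutant. Levels of insm1.S lay between 16.5 and 30.6 CPM in all 6 libraries. For myt1.L the values were 265 and 320, 155 and 126, and 198 and 158 CPM, and for id2.L 388 and 397, 201 and 107, and 352 and 207 CPM.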

How the data were processed

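Per the labels' protocols, Trizol RNA went into Illumina libraries. The values are raw counts per gene as deposited by the authors. The submitters' processing notes name CASAVA 1.8, STAR 2.5, featureCounts and DESeq2 1.8. Strandedness and the handling of reads that match several places are not given in the sources used here, so homeologs, gene families and overlapping genes may share reads. Coordinates are from the deposited annotation of build 9.1.

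Counts were analysed in R 4.3.3 with edgeR 4.0.16. TMM scaling and filterByExpr left 30384 of 45038 genes. Of 1947 list copies, 178 were not tested. A robust quasi-likelihood model took a mean for each of the groups from all 16 libraries (8 residual degrees of freedom, common biological variation 0.378 as a coefficient), since 2 libraries per group hold little information on the spread. P-values were adjusted by Benjamini-Hochberg over all genes and called under 0.05. Fold changes used a prior count of 0.125, and those of genes with 0 to 3 control counts depend on it. At-least folds were set against 3 counts over the control pair. Intervals (exact, 95%) and floors cover counting error only. DESeq2 1.42.0 was an alternative, as were its size factors, no filter, other sets of libraries, replicate blocks, other thresholds, summed copies and equal depth. Counts were simulated for this comparison over 29855 genes, with 50 genes each changed at folds of 2, 4, 8 and 16. Of these 22%, 84%, 86% and 96% were called, and 13 unchanged genes were called. The changed genes were drawn from those with a mean log2 CPM above 0 in the 6 h controls. No shared effect of replicate number was simulated. The rates therefore do not cover lower control levels, which many of the genes called higher had.

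The main fit has no replicate block. Deviations of replicate 1 from its group mean correlated at 0.474 between Ptf1a and control caps of 6 h. Over all pairs of 6 h groups these correlations ran from 0.4 to 0.549. Between groups of 6 h and of 25 h they ran from 0.0854 to 0.192. The 6 h libraries of 1 number thus deviated together, which the main fit does not model. Only 2 numbers exist and the labels do not say what they stand for, so the ratios within a number are descriptive.

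Genes, the 36 lists and tests were chosen with earlier results of these data known. The rule named ptf1a and its partners, the 15 highest called genes with a symbol, a mean log2 CPM above 0 and no overlap (1 copy per pair), all called lower genes, up to 3 called members per list, and the other copy of each. Named outside it, after their values were seen, were the abundant genes so described, insm1, zbtb18.S, jag1, notch1, neurl1b, nrarp, hes3.1.S, bhlhe40.L and hes5.1.S. So were id3, sox8.L, efnb1.L, fzd2.S, kitlg.L, igf1r.S, fos.L, neurog2.L, neurod4, dlx6.S, hes1, hes5_X2 and marker genes with no call. Counts of named copies do not include hes5_X2. Of the genes without a symbol, none matched a RefSeq record by ID. A description of promoter motifs that had been planned was not run, and no sequences are shown. The result of 1 list is not reported here.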

Additional observations from a re-analysis of the deposited data

Results flagged for a closer look

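The effect of Ptf1a against control differed between 25 h and 6 h, by edgeR's quasi-likelihood test of the difference itself with Benjamini-Hochberg adjustment over all genes (adjusted p from 0.000144 to 0.0487), for 64 of the genes named above. Values below are the log2 fold change at 25 h minus that at 6 h. Of these genes 60 were called at 6 h, and their choice shares the 6 h libraries with this difference, so falls among them are no independent result. No cause was tested. Over 15 alternative settings each, the difference kept its sign throughout and passed the threshold in 839 of 960 fits.

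It was larger at 25 h for 3 genes not called at 6 h: neurog2.L by 3.57, and the E protein genes tcf12.L by 1.37 and tcf3.L by 1.05. The GABA synthesis gene gad1.2.L, at 616 and 413 CPM with Ptf1a against 509 and 347 CPM at 6 h (log2 fold change 0.26 ± 0.52), had a difference of -2.75.

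Among the factor and the largest rises, the differences were -6.74 for ptf1a.L, -7.91 for zc3h12c.L, -6.85 for cbfa2t2.S, -2.09 for cbfa2t2.L, -6.67 for pou3f1.L, -4.59 for pou3f1.S, -7.41 for fam101b.L and -5.07 for c8orf4.L. Of the neuronal and fate factors, myt1.S was at -2.42, zbtb18.S at -2.30, gata3.L at -4.99 and gata3.S at -3.44.

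In the Notch groups hes3.3.S was at -8.33, hes8.S at -7.76, hes3.3.L at -3.57, numbl.L at -3.27, bhlhe40.L at -2.75, neurl1b.L at -1.85, neurl1b.S at -1.70 and nrarp.S at -1.22. Both controls of 6 h had 0 counts of hes8.S and 1 had 0 of hes3.3.S, so these 2 depend on the prior count. The Id genes stood at -7.19 for id4.S, -4.69 for id4.L, -3.37 for id2.L and -2.81 for id2.S.

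Cell cycle and stress genes stood at -3.52 for rbl2.L, -2.85 for cdc25b.L, -2.62 for plk3.S, -1.66 for cdknx.L and -1.24 for cdknx.S. Crest and patterning genes stood at -5.91 for snai2.S, which had 0 counts in both controls of 6 h, -4.79 for snai2.L, -3.15 for foxc1.L and -2.97 for meis1.L.

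Signalling genes stood at -5.78 for fzd10.S, -3.68 for fzd10.L, -1.76 for fzd2.S, -3.53 for efnb2.L, -1.81 for efnb3.S, -1.88 for smad6.L, -1.71 for ngfr.S, -1.51 for kitlg.L and -0.887 for igf1r.S. The adhesion gene pcdh7.L stood at -2.54.

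The abundant genes stood at -4.70 for arl4a.S, -3.03 for arl4a.L, -3.95 for tiparp.L, -2.84 for mxi1.L, -2.36 for rhebl1.L, -2.27 for pim1.L, -2.05 for amer1.L, -1.87 for rap2b.L, -1.45 for tgif1.L and -0.969 for rap2b.S. The remaining differences were -4.52 for gata6.L, -4.14 for rbm24.L, -3.99 for jun.L, -3.78 for tsc22d3.L, -3.31 for dlx3.L, -2.66 for myb.L and -2.10 for foxa1.L.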

How the results depend on the processing

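Of the 269 higher and 5 lower genes, DESeq2's Wald test gave 484 and 101, the 8 libraries of 6 h 97 higher, the 4 libraries compared 7 and 0, a fold threshold of 1.5 (glmTreat) 179 and 2, and an adjusted p under 0.01 136 and 2. At an unadjusted p under 0.05 the fit of 4 libraries had 1323 higher and 700 lower genes. The replicate block gave 416 and 17, a replicate block within each time 686 and 55, and a replicate block in only the 4 libraries 1288 and 1026. In 8 fits that each left out 1 Ptf1a or control library of either time, the counts ran from 84 to 254 higher and from 1 to 6 lower. DESeq2 size factors (214 and 7), no filter (330 and 6) and no robust fit (270 and 5) stayed closer, and moved the median of all genes from 0.15 to 0.00188 in the case of the size factors.

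The main fit had 75 genes higher at both times, 50 lower at 25 h and 175 with a lower log2 fold change at 25 h than at 6 h. For these DESeq2 gave 143, 103 and 285, the replicate block 123, 92 and 265, and the replicate block within each time 191, 193 and 448. Leaving out 1 library gave 24 to 65, 18 to 40 and 67 to 154.

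Directions that turned were those of uncalled partners and other uncalled copies. The log2 fold change of tcf3.S was -0.12 with DESeq2 size factors or DESeq2, -0.0995 and -0.0987 with 8 and 4 libraries, -0.0972 with the block on 4, -0.0945 with equal depth, -0.048 with copies summed, and -0.0762 to 0.181 without 1 library. With no filter tcf3.L was at 0.0131 and tcf12.S at 0.0136. Over the fits without 1 library, rbpj.S ran from -0.25 to 0.113, tcf3.L from -0.158 to 0.0337, tcf12.S from -0.155 to 0.0263 and gad1.2.L from -0.0366 to 0.587. With copies summed tcf12.L was at -0.0351. The causes were not tested.

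Of 107 called copies named, 36 stayed called without each of the 4 libraries of 6 h. With control totals of 49.15 and 31.44 in units of 1e6, low control levels rest on a few counts.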
